A study of Homo sapiens with 6 samples.

Results

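The comparison set 3 arrays of Jurkat cells given siRNA against RPS3 beside 3 arrays of the same cells given siRNA against p65, matched by stimulation time. Jurkat is a human T-cell leukaemia line. For each probe and gene, the log2 ratio with RPS3 siRNA minus that with p65 siRNA was taken at 1, 3 and 6 h, and the mean of the 3 differences was tested against 0. All 6 arrays of the series entered it. Of 15246 probes, 13260 (87.0%) had a difference at 1 h, 13087 (85.8%) at 3 h and 12141 (79.6%) at 6 h. At least 1 difference was had by 14462 probes (94.9%), and 10721 (70.3%) had all 3. The test ran on 7248 features with a difference at every time, 3913 named genes and 3335 probes without a gene name.

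Each array carried 2 colours. Cy5-labelled RNA came from cells transfected with p65 siRNA or RPS3 siRNA, and Cy3-labelled RNA from cells transfected with nonspecific siRNA, which served as the control. Both RNAs of an array came from cells stimulated through CD3 and CD28 with 1 ug of antibody for 1, 3 or 6 h, so all groups were stimulated and none was resting. Each siRNA had 1 array per time and no dye swap was named. Whether the controls of the arrays of a time were the same RNA is not stated, nor are the siRNA sequences or the protein levels. The labels do not state the direction of the ratios or their log base, here read as siRNA over control and 2. In this direction the RPS3 transcript lies below control on the RPS3 siRNA arrays, and turned it would lie above control under its own siRNA. A level cannot be read from ratios, so the T-cell identity of the line could not be checked against marker levels. CD3D, part of the T-cell receptor complex, differed between the siRNAs by 0.07 ± 0.07 (SD, n = 3). Not all T-cell markers were as even, with CD2 at 0.54 ± 0.16 and ZAP70 at 0.52 ± 0.14, while LCK lay below 0.

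NF-kB is a family of dimeric transcription factors, and p65, the product of RELA, is the subunit that activates most of its targets. IkB proteins hold the dimers in the cytoplasm until a signal, such as that of the T-cell receptor through the kinase PKC-theta and the CARMA1, BCL10 and MALT1 complex, makes the IkB kinases mark them for destruction. NFKBIA and TNFAIP3, which encode IkB-alpha and A20, are induced by NF-kB and shut the pathway off again. RPS3 is a protein of the small ribosomal subunit that the series treats as a component of p65 complexes. Subtracting the p65 siRNA ratio from the RPS3 siRNA ratio of the same time asks which transcripts respond differently to the knockdowns, and a change that they share cancels.

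Promoter sequence is shown for members of 3 gene groups on which the comparison bears, as RefSeq gives it for GRCh38.p14, in the window from 250 bases before to 50 after the start of each gene. The endoplasmic reticulum stress element, CCAAT and CCACG with 9 free bases between them, was searched on both strands. It was found in 22 of 27305 promoters (0.0806%), in 7 of 3212 tested genes with a promoter in the table (0.218%), and in 5 of 44 genes of endoplasmic reticulum folding and stress (11.4%). Those 5 are printed 5′ to 3′ along the gene, with the fixed letters of the match in capitals. HSP90B1 held 2 matches in the window, of which 1 is printed.
HSPA5 (chr9:125241361-125241439, minus strand): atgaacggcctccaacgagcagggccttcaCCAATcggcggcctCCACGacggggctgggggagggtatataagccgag
XBP1 (chr22:28800573-28800651, minus strand): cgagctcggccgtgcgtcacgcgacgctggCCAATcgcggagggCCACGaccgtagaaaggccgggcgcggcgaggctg
HSP90B1 (chr12:103930186-103930264, plus strand): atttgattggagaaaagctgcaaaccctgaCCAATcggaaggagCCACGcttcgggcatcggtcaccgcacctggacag
CALR (chr19:12938359-12938432, plus strand): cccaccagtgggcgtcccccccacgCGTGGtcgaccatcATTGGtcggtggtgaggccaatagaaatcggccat
CRELD2 (chr22:49918524-49918602, plus strand): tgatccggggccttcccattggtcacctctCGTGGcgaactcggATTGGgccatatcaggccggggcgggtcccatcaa

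The cell cycle homology region, TTTGAA or TTCGAA on both strands, is a short element of genes expressed in G2 and mitosis. It is common, with 4539 of 27305 promoters (16.6%) and 416 of 3212 tested genes (13.0%) holding a match, against 27 of 42 genes of the G2 and M phase list (64.3%). The following 4 are examples picked with their values known, and capitals mark the match.
CDK1 (chr10:60778140-60778205, plus strand): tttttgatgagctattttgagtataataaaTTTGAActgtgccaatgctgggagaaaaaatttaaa
PLK1 (chr16:23678830-23678888, plus strand): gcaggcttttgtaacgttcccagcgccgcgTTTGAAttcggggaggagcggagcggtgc
CENPA (chr2:26786008-26786055, plus strand): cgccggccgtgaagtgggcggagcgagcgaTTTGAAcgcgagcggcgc
CKS2 (chr9:89311136-89311194, plus strand): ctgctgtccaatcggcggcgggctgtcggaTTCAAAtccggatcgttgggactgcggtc

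The kappa B motif, here GGGA and TTTCC with 1 free base between them on both strands, is bound by NF-kB dimers. A match lay in 158 promoters (0.579%), in 31 of 3212 tested genes (0.965%), in 4 of 20 members of the NF-kB and IkB family (20.0%) and in 9 of 47 NF-kB target genes (19.1%). These 3 family members show it, again in capitals. A match is a description of the letters and not of binding.
NFKBIA (chr14:35404791-35404860, minus strand): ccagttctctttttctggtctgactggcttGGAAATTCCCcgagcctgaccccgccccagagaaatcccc
TNFAIP3 (chr6:137867162-137867231, plus strand): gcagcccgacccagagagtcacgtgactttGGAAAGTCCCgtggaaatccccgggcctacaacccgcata
NFKB1 (chr4:102501280-102501349, plus strand): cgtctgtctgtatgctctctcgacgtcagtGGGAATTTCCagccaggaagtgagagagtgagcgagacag

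The arrays did not group by time alone. Database ID numbers in the labels form 2 consecutive series. The p65 1 h and RPS3 3 h arrays make up the first, and the other 4 arrays the second. Over the 7248 features, the p65 and RPS3 arrays of the same time correlated at r = 0.17 at 1 h and 0.18 at 3 h. The p65 1 h array correlated more with the RPS3 3 h array of its ID series (r = 0.44), and the p65 3 h array more with the RPS3 1 h array (r = 0.47). At 6 h, where time and ID series coincide, r was 0.70. The differences at 1 and 3 h correlated at r = -0.26, those at 3 and 6 h at 0.31 and those at 1 and 6 h at 0.10. These are descriptions over features that share arrays, and the labels were kept as given. Whether the 1 h and 3 h labels of one siRNA were exchanged was not tested. An exchange would change the differences at 1 and 3 h, the genes named at single times and the slopes with time. The mean of the 3 differences is the same number whether arrays are matched by time or within the ID series. Its error is not, so values within each series stand beside the main results, although times also differ there.

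**Figure D1:**
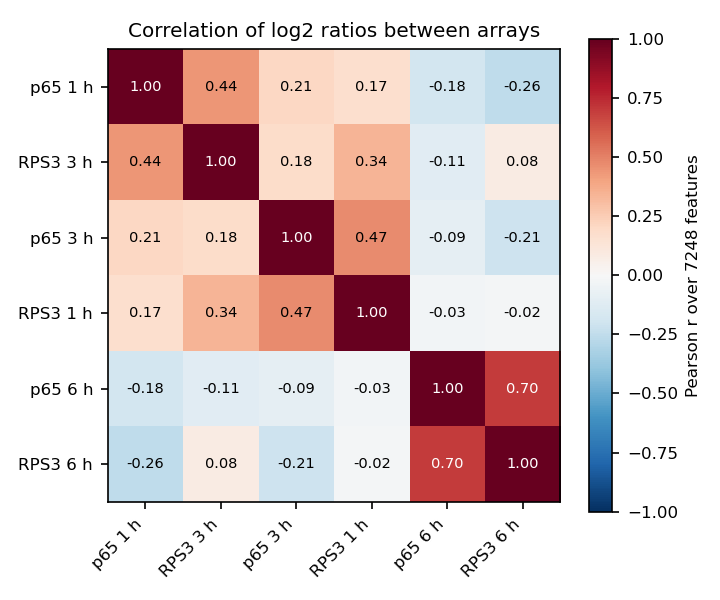
Pearson correlation of the log2 ratios (siRNA over control) between the 6 arrays over 7248 features, with arrays of the same ID series or time set next to each other. The p65 1 h array is closer to the RPS3 3 h array (0.44) than to the RPS3 1 h array (0.17), and the 6 h arrays are closest to each other (0.70).

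Array totals ran from 12946 to 14423 values, and the SD of the log2 ratios from 0.26 to 0.51. The differences had an SD of 0.39 at 1 h, 0.41 at 3 h and 0.30 at 6 h, and a median of -0.04, 0.02 and -0.01. Averaged over the times, the difference had a median of -0.0019 and an SD of 0.22 over features. Markers of other cell lineages had a median difference of 0.20, -0.25 and -0.05 at 1, 3 and 6 h and -0.04 for the mean, with 18 of 29 below 0. Of those markers 5 lay below 0 at all 3 times (17.2%, against 16.0% of all features) and 1 above (3.45%, against 13.0%), OGN.

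The clearest difference between the siRNAs was the RPS3 transcript itself. Its probe read 0.11, 0.01 and 1.11 with p65 siRNA at 1, 3 and 6 h. With RPS3 siRNA it read -2.50, -2.53 and -1.44. The 3 differences, -2.60, -2.54 and -2.55, were close to each other although both 6 h arrays read about 1 unit above the earlier ones. Their mean was -2.57 ± 0.03 (SD, n = 3), 5.92-fold lower with RPS3 siRNA, with a limma adjusted p of 0.00614 over all features. Within the first and second ID series it was -2.64 and -2.53. Nothing in the labels says that arrays came from separate cultures, so this p measures only the spread between these arrays. Without the 6 h arrays the size stayed at -2.57, but the adjusted p was 0.225. RPS3 also did not pass without pairing by time (adjusted p = 0.514) or with scale normalization (adjusted p = 0.0726).

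Only 1 other feature passed, an unnamed probe, described here after its values were seen. In all, 2 features were lower (0.0276% of those tested) and 0 higher (0.0%). Probe 35578_1 read 0.20, -0.11 and 0.95 with p65 siRNA and -2.53, -2.10 and -1.50 with RPS3 siRNA. Its mean difference was -2.39 ± 0.37 (limma adjusted p = 0.0348), and the groups did not overlap. It did not pass without pairing by time, with scale normalization, without the 6 h arrays, or when features with differences at 2 or more times were tested. Its number lies 24 above that of the RPS3 probe. With each probe fitted alone, the same 2 probes passed of 10721 (0.0187%).

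Other probes near the RPS3 probe in number were low too. Probe 35542_1, unnamed, differed by -1.67, -1.26 and -1.65, with an adjusted p of 0.107, the lowest of any feature that did not pass. A probe of BSG, which encodes the surface glycoprotein basigin, differed by -1.55, -0.78 and -1.19, while the other BSG probe differed by -0.08, 0.31 and 0.25. A probe of RGS4, an inhibitor of G-protein signalling, differed by -1.12, -1.05 and -1.37. Another RGS4 probe read 0.90, -0.47 and -0.93, so the probes of both genes disagreed. Within 10 numbers of the RPS3 probe, 1 of 16 probes with all differences (6.25%) lay below -0.5 at every time. Within 40 numbers, a range added after seeing the data, it was 4 of 54 (7.41%), against 27 of 10721 probes on the array (0.252%). What these probes share with the RPS3 probe beside their number was not tested, and their values stand apart from the gene groups that follow.

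**Figure D2:**
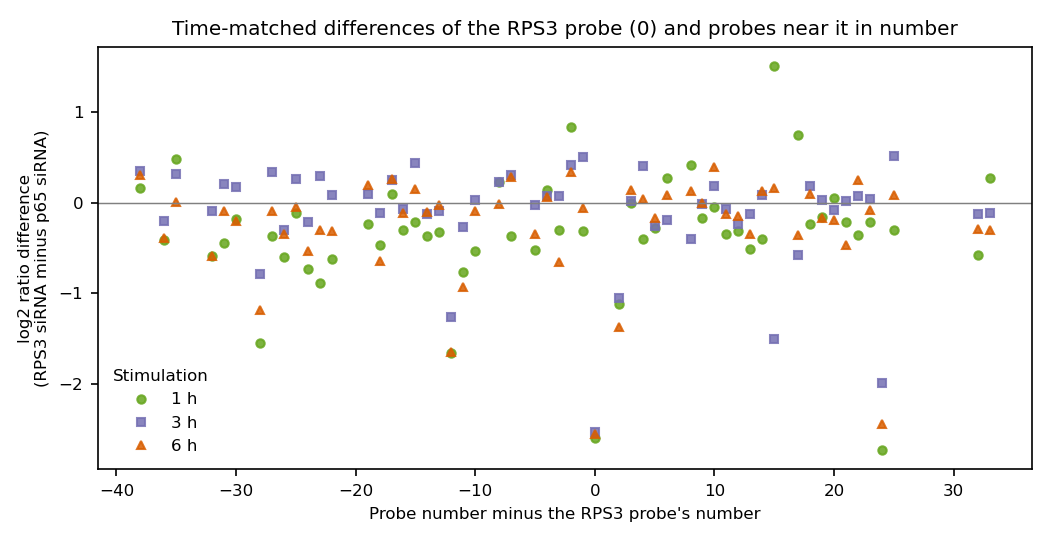
Log2 ratio differences (RPS3 siRNA minus p65 siRNA, vertical axis) at 1, 3 and 6 h for the RPS3 probe at 0 and the probes within 40 of it in number (horizontal axis). The RPS3 probe lies near -2.57 at all times, probe 35578_1 at +24 between -2.73 and -1.99, and probe 35542_1 at -12 between -1.67 and -1.26, while most neighbours lie around 0.

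RELA, the target of the p65 siRNA, was no lower on the p65 arrays than on the RPS3 arrays. It read -0.41, -0.46 and -0.59 with p65 siRNA. With RPS3 siRNA it read -0.39, -0.69 and -0.54, and the groups overlapped. Its mean difference was -0.05 ± 0.15 (limma adjusted p = 0.962), -0.28 in the first ID series and 0.06 in the second. Its 2 probes read unlike levels, and the gene values average them. Probe 15848_1 read -0.71, -0.985 and -1.05 with p65 siRNA and -1.28, -0.99 and -0.94 with RPS3 siRNA. Probe 28407_1 read -0.12, 0.06 and -0.13 against 0.50, -0.40 and -0.14, on both sides of 0. The difference averaged -0.16 for probe 15848_1 and 0.05 for probe 28407_1. The array labels of the p65 group thus have no check from their own target in this comparison, whereas those of the RPS3 group do.

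The genes of the NF-kB pathway sat, on the median, slightly above 0, and none passed. Of 22 tested family members 15 lay above 0, where 49.5% of all features did, and their median difference was 0.12. At 1, 3 and 6 h the median was 0.00, 0.19 and 0.08. Higher with RPS3 siRNA at all 3 times were 6 members (27.3%, background 13.0%), and 1 was lower at all 3 (4.55%, background 16.0%). An unadjusted p under 0.05 was had by 2 higher members (9.09%, background 2.8%) and 0 lower ones (background 3.57%). The median ran from 0.05 to 0.16 over the 15 alternatives tried.

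Among the subunits, RELB, which pairs with p52 in the noncanonical pathway, had the smallest p. RELB read -0.46, -0.34 and -0.04 with p65 siRNA and -0.04, -0.07 and 0.25 with RPS3 siRNA, a difference of 0.33 ± 0.08 (unadjusted p = 0.0439, adjusted p = 0.748). The groups overlapped, and its 3 probes averaged 0.11, 0.69 and 0.17. NFKB1, the precursor of p50, differed by 0.32 ± 0.42, REL by 0.15 ± 0.23 and NFKB2, the precursor of p52, by 0.08 ± 0.25. For NFKB1 the SD over the times exceeded the mean, which was 0.21 with the median over its probes.

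TNFAIP3 and NFKBIA, the inhibitors that NF-kB induces, read below 0 on all 6 arrays. TNFAIP3 read -1.19, -1.34 and -0.59 on the p65 arrays against -0.99, -0.54 and -0.38 on the RPS3 arrays. Its difference was 0.40 ± 0.34, above 0 at every time (unadjusted p = 0.0548). All 6 of its probes lay between 0.35 and 0.52, but the groups overlapped at this spread. NFKBIA read -0.995, -0.79 and -0.46 with p65 siRNA and -0.91, -0.51 and -0.37 with RPS3 siRNA, a difference of 0.15 ± 0.11. For NFKBIA the value was 0.49 in the first ID series and -0.02 in the second, and for TNFAIP3 it was 0.65 and 0.28. NFKBID differed by 0.24 ± 0.03, NFKBIB by 0.12 ± 0.27, NFKBIE by 0.12 ± 0.06 and the IkB-like BCL3 by -0.13 ± 0.33. The NFKBIE probes disagreed, so its small SD and same sign at all times hold only for their average. Its only complete probe averaged 0.04 and read -0.33 at 1 h, where the other read 0.69. No NFKBIB probe had all 3 differences.

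Of the kinases, adaptors and deubiquitinases upstream, CYLD stood highest. CYLD, which strips ubiquitin chains from pathway components, read 0.03, -0.53 and 0.07 with p65 siRNA. With RPS3 siRNA it read 0.36, 0.31 and 0.58. Its difference was 0.56 ± 0.26 (unadjusted p = 0.00998, adjusted p = 0.748) from 1 probe, and the groups did not overlap. The IkB kinase genes lay on both sides of 0, with CHUK at 0.19 ± 0.30, IKBKE at -0.13 ± 0.13 and IKBKG at -0.24 ± 0.47. TAB2 differed by 0.27 ± 0.29 (0.14 with complete probes only), MAP3K7 by 0.16 ± 0.30 and TAB1 by 0.11 ± 0.19. BCL10 (0.03), MALT1 (-0.04), MAP3K14 (-0.03) and PRKCQ, the gene of PKC-theta (-0.07), were within 0.07 of 0.

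The 4 family members with a kappa B match in the window, NFKB1, NFKBIA, REL and TNFAIP3, had a median of 0.24 and 0 lay below 0. The 16 without a match had a median of 0.05. In the wider target list the 9 with a match had a median of 0.08 with 3 below 0, and the 38 without one -0.03. Of those 9, NFKB1, NFKBIA and TNFAIP3 are the same genes as in the family, so the contrasts are not separate. The others were B2M (-0.29), IL6 (-0.16), LTB (-0.11), CXCL2 (0.0019), TAP1 (0.08) and CXCL1 (0.10).

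NF-kB target genes as a list did not lean either way. Of 59 tested, 28 lay below 0 and the median was 0.02. At all 3 times 9 members were lower (15.3%, background 16.0%) and 9 higher (15.3%, background 13.0%). TNFAIP8, an apoptosis inhibitor, differed by 0.61 ± 0.39, but its only probe with all differences averaged 0.13. CXCL11, a chemokine of the CXCR3 receptor, read 0.40, 1.34 and 0.22 with p65 siRNA and -0.17, 0.20 and 0.01 with RPS3 siRNA, a difference of -0.63 ± 0.47. CD69, an early activation marker, read -0.11, -0.58 and -0.52 with p65 siRNA and 0.43, 0.10 and -0.40 with RPS3 siRNA. Its difference was 0.45 ± 0.29 and its 4 probes averaged between 0.25 and 0.56. With an unadjusted p under 0.05, 3 members were higher (5.08%, background 2.8%) and 1 lower (1.69%, background 3.57%), and none passed over all features.

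Beyond RPS3, several of the lowest named genes had differences of similar size at the 3 times, but none passed (adjusted p = 0.748 for each). They were drawn from the 258 features (3.56%) that were lower, and the highest from the 194 (2.68%) that were higher, at every time with an unadjusted p under 0.05. RHOU read -0.07, 0.05 and 0.04 with p65 siRNA and -0.80, -0.95 and -1.15 with RPS3 siRNA. Its difference was -0.97 ± 0.23 (unadjusted p = 5.46e-04). ID1, which blocks basic helix-loop-helix factors, read 0.19, 0.25 and -0.28 against -0.64, -0.51 and -1.02, a difference of -0.78 ± 0.05. On both sets of arrays ID1 was lowest at 6 h, and the difference was much the same at each time.

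NOTCH3, a receptor of the Notch family, read 0.21, 0.16 and 0.35 with p65 siRNA and -0.87, -0.41 and -0.31 with RPS3 siRNA. Its difference of -0.77 ± 0.27 was found by each of its 2 probes (-0.77 and -0.77). CTSG, the protease cathepsin G, read 0.31, 0.12 and 0.28 against -0.55, -0.58 and -0.45, a difference of -0.76 ± 0.09 from 1 probe. For both genes every p65 array lay above 0 and every RPS3 array below.

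IFIT1 and BHLHE40 had unequal differences between the ID series. IFIT1, an interferon-induced RNA-binding protein, read -0.01, 1.19 and 0.38 with p65 siRNA and -0.14, -0.06 and -0.56 with RPS3 siRNA. Its difference of -0.77 ± 0.57 was -0.05 in the first ID series and -1.13 in the second. BHLHE40, a transcriptional repressor of activated T cells, differed by -0.66 ± 0.48, and its groups overlapped. Within the first series BHLHE40 was higher with RPS3 siRNA (0.29), and in the second lower (-1.13). IFI6 followed IFIT1 with -0.43 ± 0.25, yet 14 of 39 interferon response genes lay below 0 and their median was 0.05.

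Most of the highest named genes varied from time to time, and none passed. NVL, an ATPase of ribosome assembly, read -0.61, -0.59 and -0.23 with p65 siRNA and -0.21, 0.02 and 1.25 with RPS3 siRNA, a difference of 0.83 ± 0.57. DMD, the dystrophin gene, read 0.00, -0.20 and -0.33 against 0.62, 0.45 and 0.39. Its difference of 0.66 ± 0.05 was even, but 1 of its 3 probes alone had a difference at every time, and averaged 0.94. ZNF292 (0.81 ± 0.70), OGN (0.79 ± 0.66), TBC1D4 (0.79 ± 0.67), CUTALP (0.78 ± 0.48), EIF5 (0.76 ± 0.68) and MED23 (0.69 ± 0.46) had SDs above 0.4. At 1 h ZNF292, OGN and EIF5 lay within 0.05 of 0, so their means came from the later times.

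**Figure D3:**
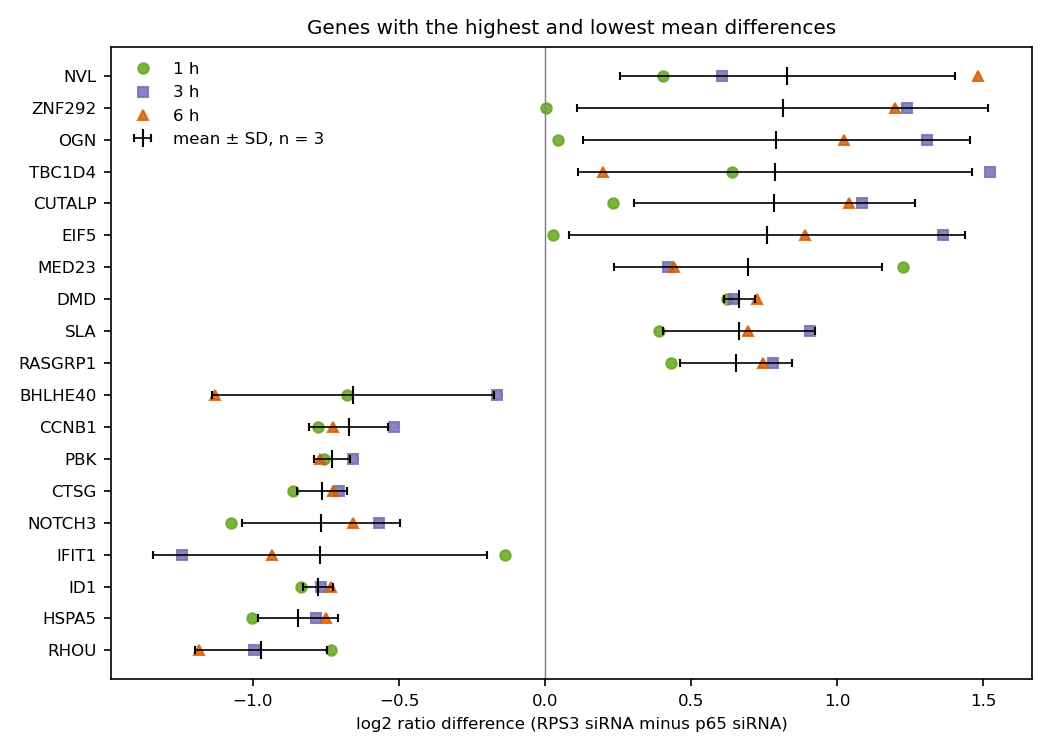
Log2 ratio differences (RPS3 siRNA minus p65 siRNA, horizontal axis) at each time for the 10 highest and, besides RPS3, the 9 lowest genes; bars give the mean ± SD over the 3 times. ID1, CTSG and PBK have nearly the same value at each time, while IFIT1, ZNF292, OGN and EIF5 are near 0 at 1 h.

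Of the 26 gene lists, that of G2 and mitosis had the largest share of members below 0. Of 54 tested, 51 lay below 0 (94.4%, background 50.5%). At all 3 times 31 were lower with RPS3 siRNA (57.4%, background 16.0%) and 0 higher (background 13.0%). An unadjusted p under 0.05 was had by 17 lower members (31.5%, background 3.57%) and 0 higher ones (background 2.8%). For 13 members, all lower with RPS3 siRNA, the groups did not overlap, where 4.76% of all features did. None passed over all features. The median difference was -0.27, with -0.50, -0.11 and -0.28 at 1, 3 and 6 h. The cyclin and kinase genes (-0.27), kinesins and spindle genes (-0.29), centromere and checkpoint genes (-0.30) and chromatin and proteolysis genes (-0.24) had like medians. In a culture of cycling cells, fewer cells in G2 and mitosis and less of these RNAs per cell cannot be told apart.

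CCNB1, encoding cyclin B1, read 0.26, -0.01 and -0.35 with p65 siRNA and -0.51, -0.53 and -1.07 with RPS3 siRNA. Its difference was -0.67 ± 0.14, and its 3 probes averaged from -0.75 to -0.61. CDK1, the kinase that cyclin B1 activates, read 0.31, 0.09 and -0.27 against -0.43, -0.35 and -0.94, a difference of -0.62 ± 0.16. All 4 CDK1 probes averaged between -0.63 and -0.60. Both genes were lowest at 6 h with either siRNA, and at each time lower with RPS3 siRNA.

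PBK, a mitotic kinase, read 0.39, 0.26 and -0.05 with p65 siRNA and -0.37, -0.40 and -0.82 with RPS3 siRNA, a difference of -0.73 ± 0.06. MELK, another kinase of dividing cells, read 0.22, 0.12 and -0.11 against -0.30, -0.39 and -0.68, a difference of -0.53 ± 0.03. For both, every RPS3 array lay below every p65 array. CKS2, a partner of CDK1, differed by -0.51, the kinesin KIF14 by -0.53, and CENPA, the histone that marks centromeres, by -0.47. The kinases BUB1 (-0.43) and PLK1 (-0.42) followed. CDC25B, CENPK and GTSE1 were the 3 members above 0, at 0.03 or less.

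Matches to the cell cycle homology region did not divide the list. The 27 members with a match had a median of -0.28 and 26 below 0, and the 15 with a promoter but no match a median of -0.24 and 13 below 0. The list's own median lay at 0.05, -0.24 and -0.09 on the p65 arrays and at -0.40, -0.29 and -0.38 on the RPS3 arrays, so the p65 3 h array was nearly as low as the RPS3 3 h array. Within the first and second ID series the median difference was -0.36 and -0.25. Leaving out the 1 h arrays gave -0.16, and leaving out the 3 h arrays -0.42.

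Replication genes leaned the same way with smaller values. Of 40 tested, 30 lay below 0 (background 50.5%) with a median of -0.07. At an unadjusted p under 0.05, 4 were lower (background 3.57%) and 0 higher (background 2.8%), and none passed. TK1, thymidine kinase, differed by -0.53 ± 0.16, and FEN1, the flap endonuclease, by -0.46 ± 0.16. RRM1, a subunit of ribonucleotide reductase, differed by -0.40 ± 0.26, and RPA3, of the single-strand binding complex, by -0.38 ± 0.12. For TK1, FEN1 and RPA3 the groups overlapped.

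**Figure D4:**
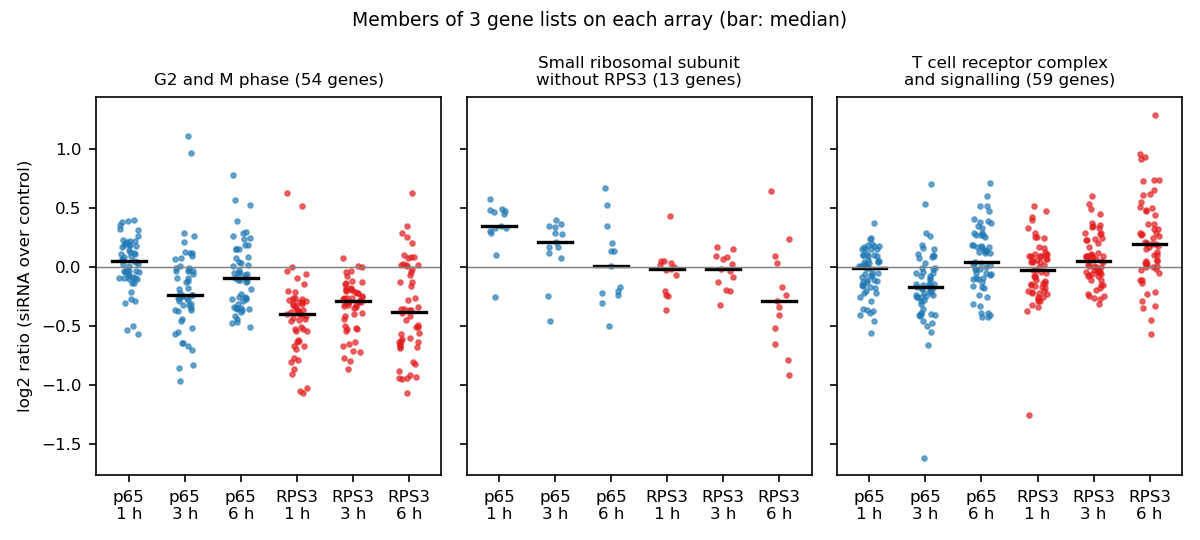
Log2 ratio (siRNA over control, vertical axis) of each member of 3 gene lists on each of the 6 arrays, with the median as a bar. The medians of G2 and M phase genes lie at -0.40, -0.29 and -0.38 on the RPS3 arrays, those of small ribosomal subunit genes lie at 0.35, 0.21 and 0.01 on the p65 arrays, and those of T cell receptor genes are highest on the RPS3 6 h array (0.20).

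Transcripts of other ribosomal proteins mostly had differences below 0. Of 33 small subunit genes in the list without RPS3, 13 were tested and 11 lay below 0, with a median of -0.34 (-0.49, -0.22 and -0.35 at the 3 times). At an unadjusted p under 0.05, 8 were lower (61.5%, background 3.57%) and 1 higher (7.69%, background 2.8%), and none passed. RPS29 read 0.45, 0.37 and -0.24 with p65 siRNA and -0.24, -0.13 and -0.92 with RPS3 siRNA. Its difference was -0.62 ± 0.11, and its 4 probes averaged from -0.66 to -0.59. RPS16 read 0.35, 0.34 and 0.14 against -0.20, -0.08 and -0.24, a difference of -0.45 ± 0.09, with each p65 array above 0 and each RPS3 array below.

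RPS9 differed by -0.53 ± 0.12 and RPS25 by -0.51 ± 0.12. RPS15A went the other way: it read -0.25, -0.45 and -0.50 with p65 siRNA and 0.43, -0.20 and 0.09 with RPS3 siRNA, a difference of 0.51 ± 0.23 (unadjusted p = 0.0132). The list's median was 0.35, 0.21 and 0.01 on the p65 arrays and -0.02, -0.01 and -0.29 on the RPS3 arrays. At 1 and 3 h it thus lay above 0 with p65 siRNA and near 0 with RPS3 siRNA. Within the first and second ID series the median difference was -0.39 and -0.31.

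Large subunit genes had a median of -0.27, with 10 of 11 below 0. At an unadjusted p under 0.05, 1 was lower (9.09%, background 3.57%), RPL37A (-0.38 ± 0.10). Ribosomal protein genes have many processed pseudogenes, which a probe can also bind. Of 12 mitochondrial ribosomal proteins 4 lay below 0, and their median was 0.05. Genes of ribosome assembly lay on the other side, with 20 of 25 above 0 and a median of 0.19. NCL, nucleolin, read -0.89, -1.24 and 0.48 with p65 siRNA and -0.50, -0.50 and 1.17 with RPS3 siRNA, a difference of 0.61 ± 0.19. Its large swing with time was common to both siRNAs. At 1 h the assembly list had a median of -0.07, against 0.26 at 3 h and 0.20 at 6 h.

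In translation, TUFM, a mitochondrial elongation factor, differed by 0.65 ± 0.30, while the 23 translation factors had a median of 0.05. That median turned below 0 in 3 of 15 alternatives. The tRNA synthetases had a median of 0.14 and the other genes of the amino acid response -0.21. LARS1, leucyl-tRNA synthetase, differed by 0.51 ± 0.21, but by -0.14 in the first ID series and 0.84 in the second. No LARS1 probe had all 3 differences. GARS1, the glycyl enzyme, differed by -0.48 ± 0.21, but by -0.32 with complete probes only.

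Among genes for folding in the endoplasmic reticulum, none passed, and HSPA5 had the lowest p. HSPA5, the chaperone BiP, read 0.16, -0.12 and 0.03 with p65 siRNA and -0.84, -0.90 and -0.72 with RPS3 siRNA. Its difference was -0.84 ± 0.14 (unadjusted p = 7.07e-04, adjusted p = 0.748), -1.06 in the first ID series and -0.74 in the second. XBP1, a transcription factor of the unfolded protein response, read 0.10, -0.10 and 0.01 against -0.51, -0.38 and -0.42, a difference of -0.44 ± 0.17. For both the p65 arrays lay near 0 and the RPS3 arrays apart from them.

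MANF, a secreted protein of the same response, read 0.37, 0.06 and 0.23 with p65 siRNA and -0.17, -0.34 and -0.22 with RPS3 siRNA, a difference of -0.46 ± 0.07. The 48 genes of the list nevertheless had a median of -0.03 with 27 below 0. At an unadjusted p under 0.05, 3 were lower (6.25%, background 3.57%) and 0 higher (background 2.8%). Chaperones and their helpers had a median of -0.17 and secretory pathway genes one of 0.0007. Without the 1 h arrays the list's median was 0.02.

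The 5 genes whose stress element is printed above did not all lie on one side. HSPA5 and XBP1 were lower at each time, and CRELD2 differed by -0.24 ± 0.12. HSP90B1, the chaperone GRP94, differed by -1.32, 0.41 and -0.37, and CALR, calreticulin, by 0.03 ± 0.04. Their median was -0.43 with 4 below 0, and that of the 39 genes with a promoter but no match was -0.04 with 23 below 0.

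Energy metabolism genes leaned below 0. Of 30 genes of glycolysis and hypoxia 27 lay below 0 with a median of -0.16, against 50.5% of all features. At all 3 times 17 were lower (56.7%, background 16.0%), and 7 had an unadjusted p under 0.05 (23.3%, background 3.57%). PGAM1, phosphoglycerate mutase, read 0.36, 0.10 and 0.38 with p65 siRNA and -0.22, -0.35 and -0.07 with RPS3 siRNA, a difference of -0.49 ± 0.08 in which all 7 probes lay between -0.59 and -0.35. ALDOC, an aldolase, differed by -0.56 ± 0.30, and VEGFA, a growth factor induced by low oxygen, by -0.37 ± 0.09. The 3 complete VEGFA probes disagreed in size, averaging -0.0353, -0.34 and -0.99. The list's median was -0.13 within each ID series.

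Of 20 respiratory chain genes 17 lay below 0, with a median of -0.17. COX7C, of cytochrome c oxidase, read 0.36, 0.25 and -0.22 with p65 siRNA and -0.02, -0.26 and -0.68 with RPS3 siRNA, a difference of -0.45 ± 0.07. UQCRB, of complex III, differed by -0.42 ± 0.04. Of 13 cholesterol and fatty acid genes 10 lay below 0 (median -0.13), with the desaturase SCD and the sterol sensor partner INSIG1 each at -0.38. Reference genes, often used for normalization, had a median of -0.08 with 8 of 11 below 0, among them TUBB (-0.38 ± 0.15) and PGK1 (-0.36 ± 0.09).

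Genes of T-cell receptor signalling leaned above 0. Of 59 tested, 18 lay below 0 and the median was 0.07. At all 3 times 22 were higher (37.3%, background 13.0%) and 3 lower (5.08%, background 16.0%). An unadjusted p under 0.05 was had by 9 higher (15.3%, background 2.8%) and 0 lower members (background 3.57%), and none passed. The groups did not overlap for 6 higher members (background 3.23%) and 1 lower one (background 4.76%). The median was 0.02, 0.26 and 0.11 at 1, 3 and 6 h and ran from 0.05 to 0.15 over the alternatives. Receptor and coreceptor genes had a median of 0.07, kinases and adaptors 0.15, and Ras, calcium and NFAT genes -0.01.

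RASGRP1, an exchange factor that activates Ras, read -0.01, -0.18 and 0.17 with p65 siRNA and 0.43, 0.60 and 0.91 with RPS3 siRNA. Its difference was 0.65 ± 0.19, and its 2 probes averaged 0.71 and 0.60. SLA, an adaptor that dampens receptor signalling, read -0.22, -0.42 and 0.60 against 0.17, 0.49 and 1.29, a difference of 0.66 ± 0.26. The SLA groups overlapped because the p65 6 h array lay above the RPS3 1 h and 3 h arrays.

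CD2, an adhesion receptor, read 0.02, -0.09 and -0.17 with p65 siRNA and 0.48, 0.35 and 0.56 with RPS3 siRNA, a difference of 0.54 ± 0.16 from 1 probe. ZAP70, the kinase recruited to the receptor, differed by 0.52 ± 0.14, and the adaptor SKAP1 by 0.50 ± 0.25. The receptor chains CD3D (0.07), CD3E (0.06), CD3G (-0.03) and CD247 (0.01) lay near 0, and so did LAT (-0.02). LCK, the kinase that starts the cascade, differed by -0.18 ± 0.21.

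The remaining lists had medians within 0.1 of 0. Immediate-early genes had a median of -0.09 with 31 of 49 below 0 (63.3%, background 50.5%), ID1, BHLHE40 and EGR4 among them. Of these genes 15 were lower at all 3 times (30.6%, background 16.0%), and 4 lower at an unadjusted p under 0.05 (8.16%, background 3.57%). T cell cytokines and activation markers had a median of 0.02, and 3 of 37 were lower at an unadjusted p under 0.05 (8.11%, background 3.57%). They were TNFRSF9 at -0.45 ± 0.36, IL2RB at -0.36 ± 0.22 and TGFB1 at -0.34 ± 0.10. The complete IL2RB probes disagreed in sign, averaging -0.62, -0.47, -0.59 and 0.25, and its limma unadjusted p was 0.0491. Apoptosis regulators (0.01), heat shock proteins (0.02), proteasome genes (-0.04), splicing factors (-0.05), p53 targets (-0.06), the interferon response (0.05) and the 5 tested genes of RNA interference (0.04) lay nearer still to 0 by their medians. Of 16 p53 targets 2 were lower at an unadjusted p under 0.05 (12.5%, background 3.57%), CDKN1A (-0.36 ± 0.04) and CCNG2 (-0.37 ± 0.07). CCNG2 was at -0.20 with complete probes only, both of which lay above 0 at 3 h (0.109 and 0.068). In CDKN1A nearly all of the mean came from the second ID series (-0.53, against -0.03 in the first).

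**Figure D5:**
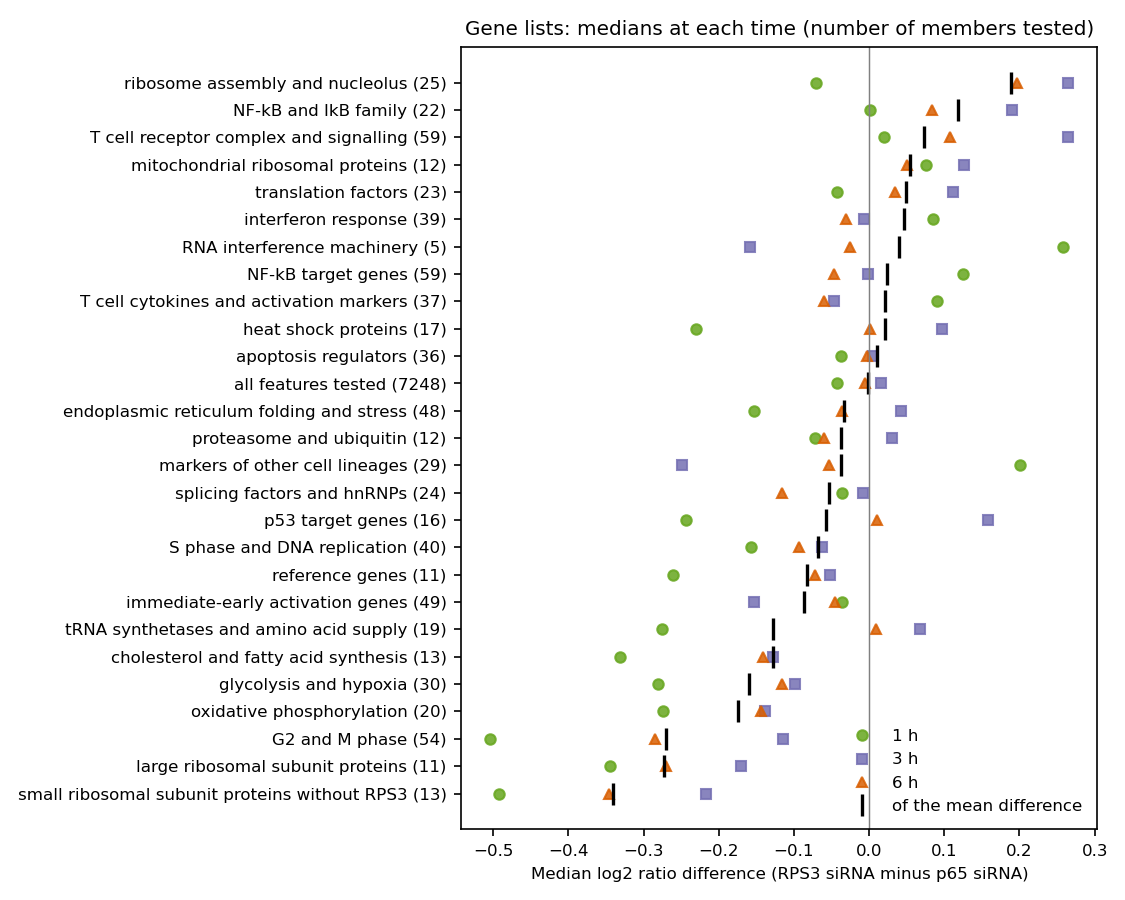
Median log2 ratio difference (RPS3 siRNA minus p65 siRNA, horizontal axis) of 26 gene lists and of all features at 1, 3 and 6 h, with the median of the mean difference as a bar and the number of members tested in brackets. Small and large ribosomal subunit and G2 and M phase lists lie lowest (-0.34, -0.27 and -0.27), ribosome assembly highest (0.19), and most lists lie lowest at 1 h.

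Single times had 1 pair of arrays and no replicate check, so genes were named there only where 2 or more probes had the same sign, ranked by the probe nearest 0. At 1 h, of 2357 genes with 2 or more probes, 473 were higher on all of them and 717 lower; at 3 h it was 617 and 513 of 2309, and at 6 h 525 and 578 of 2163. HSP90B1 (-1.32), WSB1 (-0.92) and NOTCH3 (-1.08) ranked lowest at 1 h, and ANXA2R-AS1 (1.44), SAMD12 (1.14) and SEC23B (1.12) highest. At 3 h SPOPL (1.53), the chemokine receptor CCR4 (1.26) and HSPA1L (0.89) ranked highest, and PRKAA2 (-1.93), SAMD12 (-1.21) and IMMP2L (-1.34) lowest.

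Several of these mirrored each other between 1 and 3 h. SAMD12 read -0.03, 1.19 and 0.30 with p65 siRNA and 1.12, -0.02 and -0.27 with RPS3 siRNA, so it was high on the p65 3 h and RPS3 1 h arrays. PRKAA2 (1.85 and 0.94) and IMMP2L (1.40 and 0.92) were high on the same pair of arrays, which share an ID series. At 6 h, where the arrays share both time and series, OGT (1.01), EIF5 (0.89) and ACAP1 (0.86) ranked highest. BHLHE40 (-1.13), RGS4 (-1.15) and STC1 (-0.78) ranked lowest there, RGS4 in part through the probe near RPS3.

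No feature passed a test of whether the difference changed with the hour (0 of 7248, 0.0%; lowest limma adjusted p = 0.342), a fit with 1 residual degree of freedom. At an unadjusted p under 0.05 30 features (0.414%) sloped upward with the hour and 130 (1.79%) downward. The lowest adjusted p, 0.342, was that of a feature without a gene name. The named genes with the smallest p were ZNF257 (0.43 per hour), UBA6 (0.33) and ALOX12 (0.51) upward and SOS2 (-0.39), FAHD2A (-0.36) and CCR1 (-0.35) downward. Their unadjusted p in the limma slope fit ran from 8.5e-04 to 0.0078. ALOX12 rested on the RPS3 6 h array, at 3.01, and SOS2 and CCR1 on the p65 6 h array, at 2.04 and 1.64. The ALOX12 differences at 1 and 3 h came from 1 of its 2 probes and that at 6 h from the other. Its slope therefore compares different probes. For CCR1, 1 of its 5 probes read 7.21 on the p65 6 h array, and the others read from -0.47 to 1.07 there.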

How the data were processed

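The deposited value table held, per probe, the log2 ratio of the 2 channels of each of 6 spotted arrays; for the log base, direction, background correction and normalization that the authors used, a statement is not given in the sources used here. Values reached 9.52, so base 10 was set aside; with a natural log, sizes on the log2 scale would be larger. The deposited array medians lay between -0.0185 and 0.007, and each array was centred again on its median. Between 5.4% and 15.1% of an array's cells were blank. Brightness of the channels was not used here, which leaves signal over background unknown. Precision is limited by the number of arrays.

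The platform annotation gave 1 symbol for 10169 of 15246 probes (4604 symbols), several for 4 and none for 5073; 10128 matched a RefSeq record (GRCh38.p14) and 0 symbols changed. Differences were taken per probe within a time, then averaged over the probes of a symbol. Of 3913 genes, 1151 averaged different probes at different times and 59 had no probe with all 3 differences. An intercept was fitted to the 3 differences with limma 3.58.1 in R 4.3.3 (lmFit, eBayes), with Benjamini-Hochberg adjustment over 7248 features and a threshold of 0.05; a slope over hours was fitted likewise. An exact sign-flip test of 3 pairs cannot go below 0.25. In simulated data of 7248 features for this comparison, 55 of 100 changes of 1 log2 unit and 88 of 100 of 2 units were recovered. These changes were planted together, which eases the adjusted threshold, and each feature's SD over its 3 differences was taken as its true spread. The shares therefore do not give the power in the real data, where RHOU at -0.97 had a limma adjusted p of 0.748. The 3 times pair the arrays by rule, since the comparison is time matched; the correlations in the report show that time was not the closest link at 1 and 3 h.

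The genes and 26 lists (1439 symbols, 671 tested; some share members, such as 6 between the NF-kB family and its targets) were chosen with earlier results of these data known. Named genes were the 10 highest and 10 lowest means that passed or, to fill places, had an unadjusted p under 0.05 and 1 sign; in each list up to 4 members by the same filter, or the 2 largest; the whole NF-kB family; 3 each way at a single time over 2 or more probes; and 3 each way for the slope. Other members named as examples were picked with values known. Lists are given by counts and medians beside all features, with no test.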

Additional observations from a re-analysis of the deposited data

Results flagged for a closer look

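Among the features that passed and the named genes, 10 had ratios against control that differed between the siRNAs by the test or lay on opposite sides of 0. The RPS3 probe (-2.57) and the unnamed probe 35578_1 (-2.39) passed the limma test of the difference. For the other 8, all 3 arrays of one siRNA lay above 0 and all 3 of the other below, but the difference did not pass (adjusted p = 0.748 for each). NOTCH3 (-0.77), CTSG (-0.76), PGAM1 (-0.49), MANF (-0.46), RPS16 (-0.45), INSIG1 (-0.38) and VEGFA (-0.37) were below 0 with RPS3 siRNA and above it with p65 siRNA. DMD (0.66) was the reverse. For DMD, INSIG1 and VEGFA the pattern hung on a value close to 0. These were -0.004 for DMD at p65 1 h, 0.01 for INSIG1 at p65 6 h and -0.015 for VEGFA at RPS3 3 h. On those arrays a probe of each gene lay on the other side of 0 (0.06, -0.12 and 0.18). The 3 complete VEGFA probes averaged -0.0353, -0.34 and -0.99. Over all 7248 features, 72 (0.993%) had the first pattern and 38 (0.524%) the second.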

How the results depend on the processing

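The count of 2 features that passed, both lower, depended on the processing. It was 0 with no replicate block (all 6 arrays, no pairing by time; lowest adjusted p = 0.514), 0 with scale normalization (0.0503) and 1, RPS3, with features that had differences at 2 or more times. Leaving out the arrays of 1 time gave 0 to 31, with 0 to 17 lower and 0 to 14 higher; the 31 came without the 1 h arrays and included RHOU, IFIT1, ZNF292, OGN, CUTALP and EIF5, and 0 came without the 6 h arrays. A setting without the probes near RPS3 in number, added after seeing the data, also removed the RPS3 probe and so both features that passed; its 0 says only that no other feature passed. With arrays matched within the ID series, also added later, 3 passed. The 259 lower and 203 higher features at an unadjusted p under 0.05 became 119 and 69 with no replicate block, 700 and 557 with the ID series as a covariate, 545 and 460 when matched within it, 434 and 295 with single probes, and 40 to 571 lower and 69 to 511 higher with 1 time left out. The RPS3 transcript kept its size but did not pass with no replicate block (-2.57, adjusted p = 0.514), with scale normalization (-2.80, 0.0726) and without the 6 h arrays (-2.57 in a range of -2.58 to -2.55 over the times left out). The RELA transcript ran from -0.10 to 0.0362, turning without the 3 h arrays. Also turning were NFKB2 (-0.0639 to 0.17), NFKBIB (-0.0225 to 0.24), BCL3 (-0.31 to 0.0078), IKBKG (-0.40 to 0.0242), MAP3K14 (-0.088 to 0.0115) and MALT1 (-0.13 to 0.009). The slope test called 5 features with quantile normalization, 2 with scale normalization and 2 with single probes. The cause of these changes was not tested. Of the list medians under alternatives, 380 moved by less than the SD of the list's medians over the times and 10 by more.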
